A study of Mus musculus with 8 samples.

Results

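The genes described here are 10 targets of the Wnt and beta-catenin pathway: Myc, Ccnd1, Axin2, Sox9, Ephb2, Ephb3, Lef1, Tcf7, Nkd1 and Znrf3. They were taken by symbol from the 40178 genes that the colon and ileum tables list between them, because the RNA helicase DDX5 has been reported as a coactivator of beta-catenin. RNAseq was performed on IECs, the cells that EDTA releases from the gut wall, of the colon and the ileum of 4 mice aged 8 weeks. WT mice were DDX5(+/+), Vil1Cre(+) and DDX5KO mice were DDX5(fl/fl), Vil1Cre(+), with 2 mice of each genotype and 8 libraries in all. Both genotypes thus carried the Cre, which the Villin1 promoter drives in the gut epithelium; cells without Villin1 keep an intact Ddx5 gene. The mice were untreated, cohoused littermates, and each mouse gave 1 colon and 1 ileum library.

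In the Wnt pathway, a cytoplasmic complex built on Apc and Axin proteins marks beta-catenin for destruction. When Wnt ligands bind Frizzled and Lrp receptors that complex is held back, and beta-catenin enters the nucleus and binds TCF and LEF proteins on the DNA of target genes. In the gut this signalling maintains the stem cells and the Paneth cells at the crypt base. Several targets, Axin2, Nkd1 and Znrf3 among them, encode inhibitors that feed back on the pathway.

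Gene counts per library ranged from 11571061 to 22984283. The IECs carried epithelial markers at 11185 to 18470 CPM summed over 9 genes, and the ileum and colon identity markers followed the labelled tissue in all 8 libraries. B cell markers summed to at most 3.75 CPM, endothelial markers to at most 3.26 and stromal markers to at most 33.8. CPM, a gene's counts relative to the library's total, was scaled between libraries by edgeR's TMM method. Ddx5 RNA was 771 and 706 CPM in WT colon and 367 and 355 in DDX5KO colon, and 700.5 and 700.3 in WT ileum against 340 and 326 in DDX5KO ileum. The log2 fold change of Ddx5 in the colon was -1.04 ± 0.089 (SE, edgeR adjusted p = 0.0866). In the ileum it was -1.07 ± 0.18 (SE, edgeR adjusted p = 0.027). The deleted gene itself thus did not pass adjustment over all genes in the colon. A gene that did not pass there cannot be taken as unchanged. In DDX5KO ileum replicate 2, 19.5% of the counts fell on 3 repeat-like genes, against 0.000956% to 4.04% in the other libraries, so the counts of members for the ileum are also given without it.

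Promoter sequences of these genes are shown for the members that differed between the tissues in WT mice, Axin2 and Ephb3, and for the 1 promoter that holds a word TCF and LEF proteins are known to bind. RefSeq promoter windows of GRCm38.p6, each 300 bases long, were found for 6 of the 10 genes (Axin2, Ephb2, Ephb3, Lef1, Tcf7 and Nkd1), 10 windows in all; Myc, Ccnd1, Sox9 and Znrf3 were not matched. The word searched was CAAAG preceded by AA, AT, TA or TT, which makes 7 letters, on both strands, and no 2 such words can overlap on the same strand. Such a word was found in 1 of the 10 windows and in 16.9% of all 32851 windows. It is a TACAAAG in a Lef1 window whose start site lies inside the Lef1 gene, and its first base lies 147 bases before that start site. The letters CAAAG alone, searched on both strands after the first result was seen, were in the 4 Lef1 windows and in none of the other 6, against 53.9% of all windows. A missing word says only that these letters are not in the window. Bases before the start site are printed 5′ to 3′ on the plus strand, with the word in capitals; the Ephb3 sequence stops where the first annotated exon begins. They lie at chr11:108920099-108920348 (Axin2), chr16:21204545-21204754 (Ephb3) and chr3:131156044-131156293 (Lef1).
Axin2: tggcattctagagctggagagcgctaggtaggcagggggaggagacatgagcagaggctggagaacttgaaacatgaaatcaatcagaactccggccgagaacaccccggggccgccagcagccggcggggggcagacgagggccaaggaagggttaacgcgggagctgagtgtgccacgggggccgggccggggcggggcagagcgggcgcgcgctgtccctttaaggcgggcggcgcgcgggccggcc
Ephb3: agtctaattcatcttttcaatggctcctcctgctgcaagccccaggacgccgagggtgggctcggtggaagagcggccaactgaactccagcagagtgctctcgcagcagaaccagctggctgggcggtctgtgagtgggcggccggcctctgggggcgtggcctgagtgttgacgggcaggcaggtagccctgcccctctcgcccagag
Lef1: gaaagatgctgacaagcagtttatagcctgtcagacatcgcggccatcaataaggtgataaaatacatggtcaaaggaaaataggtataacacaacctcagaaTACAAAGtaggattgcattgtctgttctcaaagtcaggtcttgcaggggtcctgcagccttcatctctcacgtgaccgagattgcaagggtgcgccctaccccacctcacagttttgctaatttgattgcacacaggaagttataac

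Set against WT, the DDX5KO colon held less RNA of the growth genes Myc and Ccnd1 in both mice. Both differences passed the study's criterion, applied here to edgeR's p, but not adjustment over all genes. The feedback gene Axin2, a widely used readout of beta-catenin activity, stood at 1.11 times the WT level in either tissue, but neither difference passed a test. In the ileum none of the 9 genes tested passed either test. Some members passed adjustment between the tissues: Axin2 was 2.57 times as high in the ileum as in the colon of WT mice, and Ephb3 was 0.709 times as high. These were 2 of the 9 members tested, beside 37.7% of all genes. Between the tissues of DDX5KO mice Axin2, Myc, Ccnd1 and Nkd1 passed, beside 37.8% of all genes, and Ephb3 did not (edgeR adjusted p = 0.0966). Lef1 was close to the limit of detection everywhere and could not be tested.

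**Figure D1:**
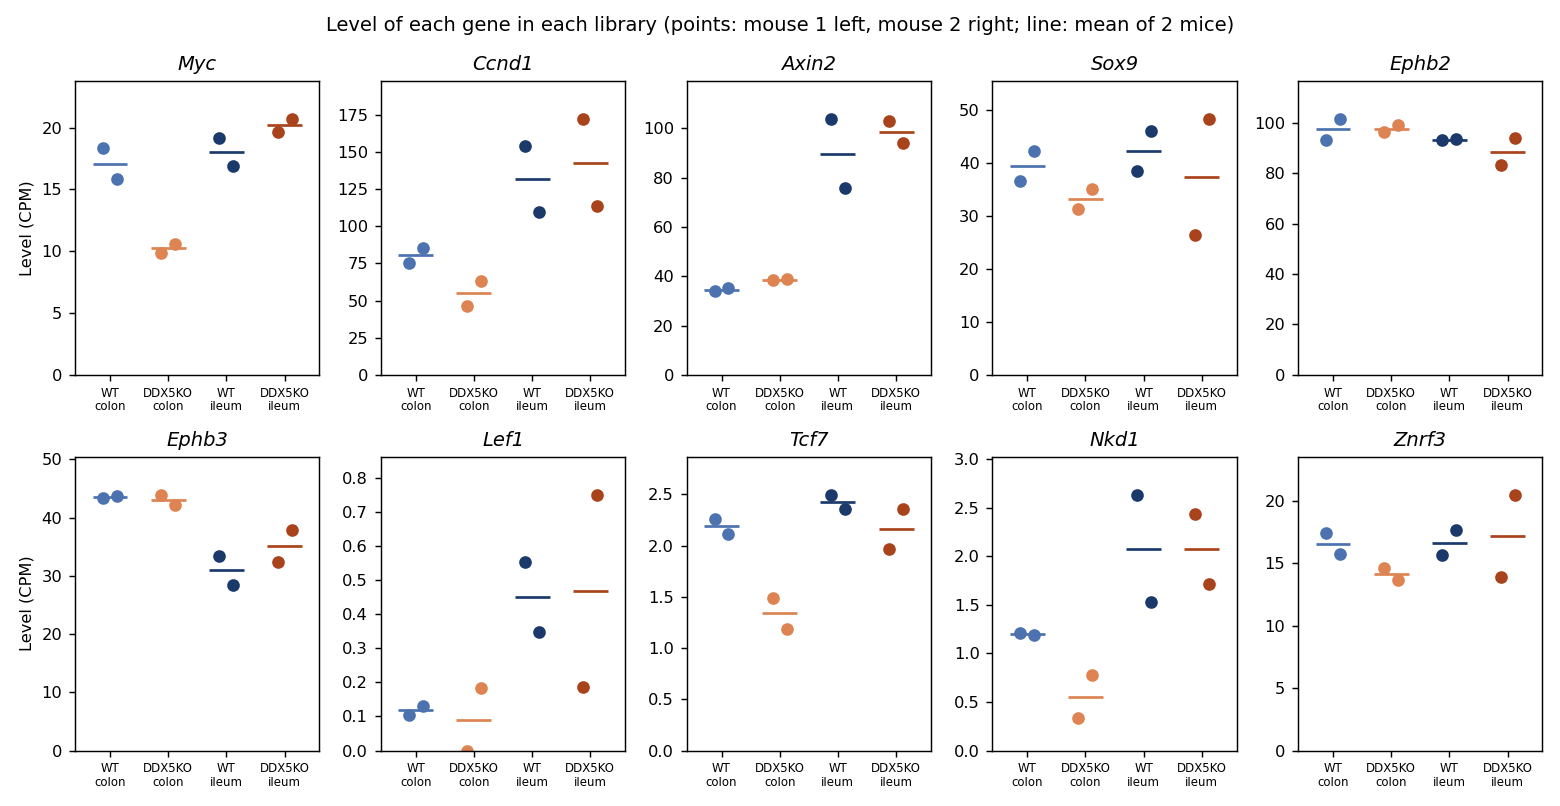
Level of each of the 10 genes (vertical axis, CPM, starting at 0, with its own scale in each panel) in the 4 groups (horizontal axis); each point is 1 library and each line the mean of 2 mice. Myc lies between 9.88 and 10.6 CPM in DDX5KO colon and between 15.8 and 20.7 in the other 6 libraries, and Axin2 is higher in every ileum library than in every colon library.

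Levels are compared between genes only as CPM per kilobase of exonic length. In WT colon, Ccnd1 was highest at 17.1 ± 1.58 CPM per kilobase (SD, n = 2), followed by Sox9 at 9.53 ± 0.991 and Ephb2 at 7.72 ± 0.448. Ephb3 (6.56 ± 0.0439), Myc (6.28 ± 0.658) and Axin2 (6.27 ± 0.166) followed, and the libraries of neighbours in this trio overlapped. Znrf3 had 2.10 ± 0.146, Tcf7 0.833 ± 0.0393, Nkd1 0.263 ± 0.00304 and Lef1 0.0135 ± 0.00217 CPM per kilobase. In WT ileum the order was Ccnd1 (28.0 ± 6.73), Axin2 (16.3 ± 3.57), Sox9 (10.2 ± 1.27), Ephb2 (7.40 ± 0.0143), Myc (6.65 ± 0.591) and Ephb3 (4.66 ± 0.516), with no overlap between neighbours. Axin2 thus moved from rank 6 in WT colon to rank 2 in WT ileum, while the 4 genes with the lowest levels per length kept their order in all 4 groups.

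Myc encodes a transcription factor that drives growth and is a textbook target of beta-catenin in the gut. The gene lies at chr15:61985391-61990374 on the plus strand (GRCm38, the build of all positions given here), and none of its 50-base words occurs in transcripts of another gene. Myc RNA was 18.3 and 15.8 CPM in WT colon replicates 1 and 2 and 9.88 and 10.6 CPM in the DDX5KO colon replicates. Both DDX5KO colon libraries thus lay below both WT colon libraries. The log2 fold change was -0.74 ± 0.15 (SE, 95% interval -1.13 to -0.36, or 0.597-fold), which passed the study's criterion with an edgeR adjusted p of 0.264. That criterion is a size of 0.5 or more on the log2 scale, up or down, together with p under 0.05 before adjustment. The study applied it to p from DESeq2, whereas here it was applied to p from edgeR. In the colon it passed 834 protein-coding genes with edgeR and 463 in DESeq2 with the replicate block. In the ileum, Myc was 19.2 and 16.9 CPM in WT and 19.7 and 20.7 CPM in DDX5KO, both above WT but by little. That log2 fold change was 0.16 ± 0.16 (SE, 95% interval -0.19 to 0.51, edgeR adjusted p = 0.760).

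Ccnd1 encodes cyclin D1, which takes cells from the first gap phase into DNA synthesis. It lies at chr7:144929931-144939925 on the minus strand. Of its 50-base words, 21.6% are shared with the transcripts of other genes, counting both strands. The gene Lto1 (listed as Oraov1) overlaps its exons on the other strand. Ccnd1 RNA was 75.1 and 85.6 CPM in WT colon and 46.6 and 63.3 CPM in DDX5KO colon, again with no overlap. The log2 fold change was -0.57 ± 0.11 (SE, 95% interval -0.85 to -0.30, or 0.673-fold), which passed the criterion with an edgeR adjusted p of 0.261. Oraov1 itself was 18.1 and 16.5 CPM in WT colon and 18.0 and 16.5 CPM in DDX5KO colon, and its part in the Ccnd1 counts was not tested. In the ileum Ccnd1 was higher and more uneven, with 154 and 109 CPM in WT and 172 and 113 CPM in DDX5KO. The 2 genotypes overlapped there, and the log2 fold change was 0.11 ± 0.14 (SE, 95% interval -0.19 to 0.41, edgeR adjusted p = 0.820).

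Mki67, the cell division marker set beside these 2 growth genes, was 251 and 276 CPM in WT colon and 188 and 273 CPM in DDX5KO colon. Its groups overlapped, and its log2 fold change was -0.23 ± 0.12 (SE, edgeR adjusted p = 0.519). The 10 proliferation markers summed to 822 and 899 CPM in WT colon and to 635 and 890 CPM in DDX5KO colon; all 10 were tested, none passed the study's criterion and none was at 0. The lower sum is that of DDX5KO replicate 1, which also had the lower Ccnd1 level of the pair. The part of cell division in the Myc and Ccnd1 differences was not tested. In bulk RNA, fewer cells of a type and less RNA per cell cannot be told apart.

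Within a library, the ratio of 2 genes' counts does not depend on how libraries are scaled. There were 0.541 and 0.449 Myc counts for each Axin2 count in WT colon and 0.257 and 0.273 in DDX5KO colon. The ratio of Ccnd1 to Axin2 was 2.22 and 2.43 in WT colon and 1.21 and 1.64 in DDX5KO colon. Both ratios were therefore lower in both DDX5KO colon libraries than in both WT colon libraries. Axin2 itself lay above WT in both DDX5KO colon libraries, which lowers the ratios further. Their order thus follows from the levels and is no separate support. In the ileum, Myc over Axin2 was 0.185 and 0.223 in WT and 0.191 and 0.220 in DDX5KO, and Ccnd1 over Axin2 was 1.49 and 1.44 in WT and 1.67 and 1.21 in DDX5KO, so that the genotypes overlapped. Against Ephb2, Myc gave the same order in the colon, with 0.196 and 0.156 in WT colon and 0.103 and 0.107 in DDX5KO colon. In the ileum Myc over Ephb2 was 0.206 and 0.181 in WT and 0.237 and 0.220 in DDX5KO, where both DDX5KO values lay above both WT values.

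**Figure D2:**
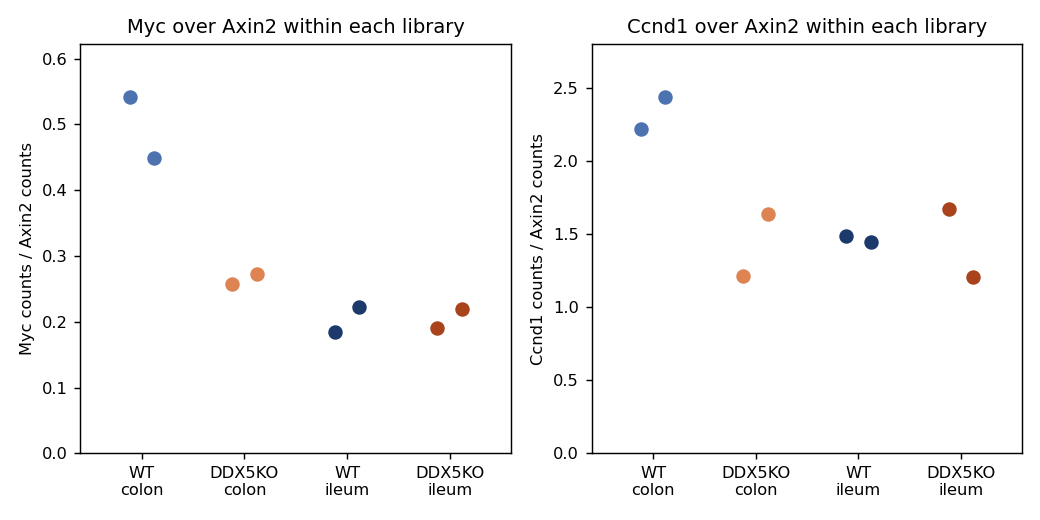
Counts of Myc (left) and Ccnd1 (right) divided by the counts of Axin2 in the same library (vertical axes, starting at 0) for the 4 groups (horizontal axis), with 1 point for each library, replicate 1 on the left. In the colon the DDX5KO points lie below the WT points for both ratios, and in the ileum the genotypes overlap.

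Axin2 encodes a scaffold of the destruction complex and is itself switched on by beta-catenin. It lies at chr11:108920349-108950783 on the plus strand, and an antisense gene, Gm11670, overlaps its exons. Axin2 RNA was 33.9 and 35.2 CPM in WT colon, 38.5 and 38.7 in DDX5KO colon, 104 and 75.8 in WT ileum and 103 and 94.1 in DDX5KO ileum. The colon libraries of DDX5KO lay above those of WT by a narrow margin, with a log2 fold change of 0.15 ± 0.096 (SE, 95% interval -0.10 to 0.40, edgeR adjusted p = 0.578). In the ileum the genotypes overlapped, and the log2 fold change was 0.15 ± 0.14 (SE, 95% interval -0.16 to 0.47, edgeR adjusted p = 0.741). Both intervals rest on 2 mice a group and on the spread that edgeR shares across genes. Whether beta-catenin activity differed was not tested.

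Nkd1, which encodes an inhibitor that binds Dishevelled, lies at chr8:88521354-88594884 on the plus strand. Its counts were low: 23 and 27 in WT colon, 6 and 17 in DDX5KO colon, 57 and 22 in WT ileum and 26 and 16 in DDX5KO ileum. As CPM it was 1.21 and 1.19 in WT colon against 0.331 and 0.775 in DDX5KO colon, which do not overlap but differ widely within DDX5KO. The log2 fold change of -1.13 ± 0.46 (SE, 95% interval -2.32 to 0.05) did not pass the criterion (edgeR adjusted p = 0.432). In the ileum Nkd1 was 2.63 and 1.53 CPM in WT and 2.44 and 1.71 in DDX5KO, with a log2 fold change of 0.01 ± 0.37 (SE).

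Znrf3, a membrane ubiquitin ligase that removes Frizzled receptors from the cell surface, lies at chr11:5276324-5444847 on the minus strand. It was 17.4 and 15.8 CPM in WT colon and 14.6 and 13.6 CPM in DDX5KO colon. The groups do not overlap, yet the log2 fold change of -0.24 ± 0.12 (SE) passed neither test (edgeR adjusted p = 0.507). In the ileum it was 15.6 and 17.6 CPM in WT and 13.9 and 20.4 CPM in DDX5KO, so that DDX5KO spanned the WT values. The 3 feedback genes thus showed no shared direction: in the colon Axin2 was above WT and Nkd1 and Znrf3 below it, none past a test. The 6 stem cell markers set beside them summed to 712 and 657 CPM in WT colon and 553 and 636 in DDX5KO colon. In the ileum they summed to 1275 and 1241 CPM in WT and 1051 and 1376 in DDX5KO, with no marker at 0. Most of each colon sum was Slc12a2, at 629 and 583 CPM in WT and 467 and 557 CPM in DDX5KO. Over the 6 markers, 3 log2 fold changes in the colon were below 0 and 3 above, with a median of 0.03. The part of stem cells in the values of the feedback genes was not tested.

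Ephb2 and Ephb3 encode Ephrin receptors that sort cells along the crypt. Ephb2 (chr4:136647539-136835988, minus strand) ranged only from 83.1 to 101 CPM over the 8 libraries, with 93.3 and 101 CPM in WT colon, 96.2 and 98.9 in DDX5KO colon, 93.1 and 93.4 in WT ileum and 83.1 and 93.9 in DDX5KO ileum. Its log2 fold change was -0.01 ± 0.084 (SE, 95% interval -0.22 to 0.21) in the colon and -0.08 ± 0.14 (SE, 95% interval -0.38 to 0.23) in the ileum. Ephb3 (chr16:21204755-21223305, plus strand) was 43.4 and 43.8 CPM in WT colon, 43.9 and 42.2 in DDX5KO colon, 33.4 and 28.5 in WT ileum and 32.3 and 37.8 in DDX5KO ileum. The genotypes overlapped in both tissues, and the log2 fold change was -0.03 ± 0.096 (SE) for colon and 0.18 ± 0.16 (SE) for ileum.

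Sox9, a transcription factor of the crypt base that Paneth cells need, lies at chr11:112782224-112787760 on the plus strand. It was 36.5 and 42.3 CPM in WT colon and 31.2 and 35.0 CPM in DDX5KO colon, which do not overlap. Its log2 fold change of -0.26 ± 0.096 (SE, 95% interval -0.51 to -0.01, edgeR adjusted p = 0.403) was too small for the study's criterion. In the ileum it was 38.5 and 45.9 CPM in WT but 26.4 and 48.2 CPM in DDX5KO, the widest spread of Sox9 in any group, and its log2 fold change was -0.23 ± 0.17 (SE, edgeR adjusted p = 0.638). Without DDX5KO ileum replicate 2 that value became -0.66 (edgeR adjusted p = 0.172), the only member to pass the criterion in the ileum in any fit.

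Paneth cell markers are set beside Sox9 and Ephb3, since both genes act in the crypt base. Lyz1, the Paneth cell lysozyme, was 0.945 and 0.924 CPM in WT colon and 2.10 and 0.456 CPM in DDX5KO colon, and 1830 and 956 CPM in WT ileum against 954 and 1049 CPM in DDX5KO ileum. The 8 Paneth markers summed to 1400 and 1587 CPM in WT colon and to 221 and 431 CPM in DDX5KO colon. In the colon 6 were tested and 3 passed the criterion, all 3 lower. Of all protein-coding genes, 4.01% passed it there as lower. In the ileum the sums were 15208 and 10794 CPM in WT and 14236 and 16488 CPM in DDX5KO, with 8 tested and 1 past the criterion, higher. Of all protein-coding genes, 6.61% passed it there in either direction. No Paneth marker was at 0 in any group. Lyz1 made up very little of the colon sums, which rest on other listed markers. Its log2 fold change in the colon was 0.21 ± 0.59 (SE, edgeR adjusted p = 0.908). Whether the RNA of the other markers in the colon came from Paneth cells was not tested. The part of Paneth cells in the Sox9 and Ephb3 values was not tested either.

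Tcf7 encodes TCF1, a DNA-binding partner of beta-catenin that is also abundant in T cells. It lies at chr11:52252371-52283014 on the minus strand. Tcf7 RNA was 2.26 and 2.11 CPM in WT colon and 1.49 and 1.19 CPM in DDX5KO colon, from 43, 48, 27 and 26 counts. In the ileum it was 2.49 and 2.36 CPM in WT and 1.97 and 2.36 CPM in DDX5KO, the latter pair under WT, 1 of them by less than the digits shown. The log2 fold change was -0.73 ± 0.29 (SE, 95% interval -1.47 to 0.02, edgeR adjusted p = 0.425) in the colon and -0.17 ± 0.36 (SE, edgeR adjusted p = 0.904) in the ileum. Neither passed the criterion. The fits in which the colon value did include those with no replicate block, with no filter on low counts and with all 8 libraries in 1 fit. They also include the fit without DDX5KO colon replicate 1.

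Lef1, the other DNA-binding partner listed, lies at chr3:131110471-131224356 on the plus strand. It had 2 and 3 counts in WT colon, 0 and 4 in DDX5KO colon, 12 and 5 in WT ileum and 2 and 7 in DDX5KO ileum. The highest level was 0.749 CPM, and an antisense gene, Gm43352, overlaps its exons. Of its 50-base words, 13.7% occur in the transcripts of other genes, counting both strands. As CPM the genotypes overlapped in both tissues, and both ileum libraries lay above both colon libraries in WT and in DDX5KO. In DDX5KO that order rests on 0.187 CPM from 2 counts (ileum replicate 1) over 0.182 CPM from 4 counts (colon replicate 2). The gene did not pass the filter on low counts, so none of these differences was tested.

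T cell markers, like Tcf7, were lower in DDX5KO colon than in WT colon. The 18 markers summed to 47.8 and 35.7 CPM in WT colon and to 8.72 and 21.1 CPM in DDX5KO colon, where Cd4 and Cd6 were at 0 in both libraries. Within DDX5KO colon the order differed: replicate 1 had the lower sum but the higher Tcf7 level, 1.49 against 1.19 CPM. Of the 13 tested in the colon, 6 passed the criterion, all lower, beside 4.01% of all protein-coding genes that passed it as lower. None passed adjustment over all genes by edgeR, and the median log2 fold change was -1.52. Ptprc and Cd3e are among the 18 markers, and Ptprc, the pan-leukocyte antigen CD45, made up a large part of each sum. Ptprc was 22.2 and 19.9 CPM in WT colon and 5.41 and 10.9 CPM in DDX5KO colon. Cd3e, a T cell receptor subunit, was 1.1 and 0.572 against 0.110 and 0.547 CPM. In the ileum the sums were 69.0 and 78.3 CPM in WT and 68.1 and 56.9 CPM in DDX5KO, and no T cell marker was at 0 in both libraries of a group. The part of these cells in the Tcf7 and Lef1 values was not tested.

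Counted over the 9 genes tested in the colon, both DDX5KO libraries lay below both WT libraries for 6, above for 1 (Axin2) and overlapped for 2. Among all 15362 genes tested in the colon, 20.7% lay below in that way and 23.8% above. At the study's criterion, 2 of the 9 members tested were lower (Myc and Ccnd1) and 0 higher. Of all 12557 protein-coding genes tested, 4.01% were lower and 6.64% passed in either direction. After Benjamini-Hochberg adjustment, 0 of 9 members and 0% of all genes passed in edgeR's test. Unadjusted p was under 0.05 for 1836 of all genes, or 12%, and DESeq2 with the block passed 116. Of the members, 3 (Myc, Ccnd1 and Sox9) had an unadjusted p under 0.05, and DESeq2 also passed 0 members. The median log2 fold change of the 9 members was -0.26, beside 0.00 for all genes. Some members passed adjustment in fits that left out 1 DDX5KO colon library. Those fits had no block and a lone DDX5KO library, and the share of all genes called in them is not given here. Myc met the criterion in every colon fit. Ccnd1 did not meet it without WT colon replicate 2 (log2 fold change -0.46), without DDX5KO colon replicate 1 (-0.36), or with all 8 libraries in 1 fit (-0.55), and in the last 2 of these Tcf7 met it instead.

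In the ileum, both DDX5KO libraries lay below WT for 1 of the 9 members tested (Tcf7) and above for 1 (Myc), and the groups overlapped for the other 7. Among all genes tested there, 20.8% lay below and 18.7% above. None of the 9 members passed the criterion, which 6.61% of protein-coding genes did, and none passed adjustment in edgeR's test, which 0.697% of all genes did; no member had an unadjusted p under 0.05, as 12.3% of all genes did, and DESeq2 passed 0 members. Log2 fold changes of the 9 members ran from -0.23 to 0.18, with a median of 0.02. Without DDX5KO ileum replicate 2, 1 member, Sox9, passed the criterion, as given above.

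**Figure D3:**
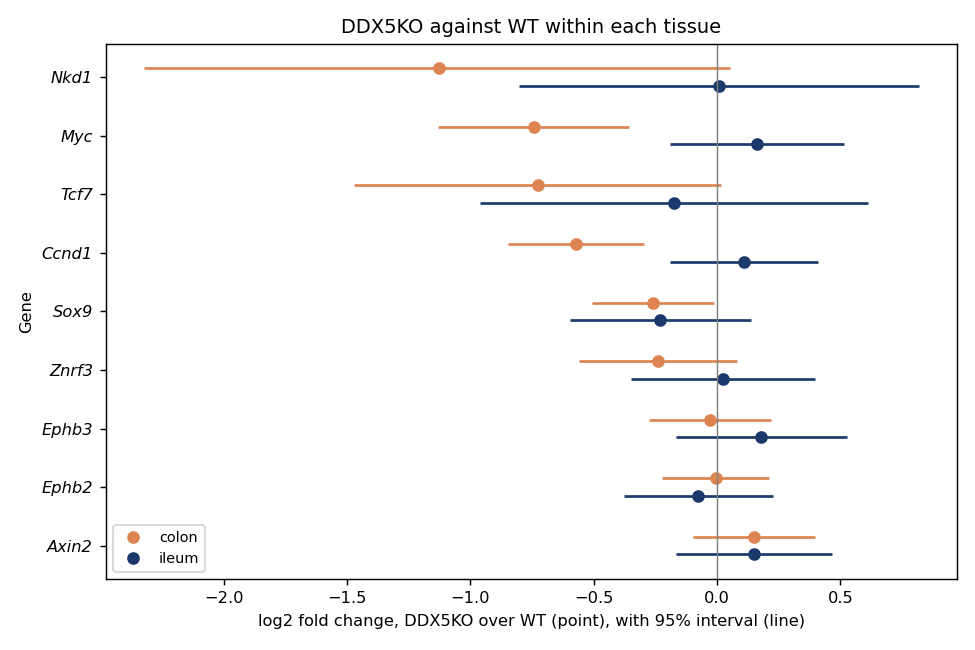
Log2 fold change of DDX5KO over WT (horizontal axis, points) with 95% intervals (lines) for the 9 genes tested (vertical axis), in the colon and the ileum. In the colon the intervals of Myc, Ccnd1 and Sox9 lie below 0, and in the ileum all 9 intervals include 0.

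The same members were then compared between the tissues of each mouse. In WT mice Axin2 rose from colon to ileum, with a log2 fold change of 1.36 ± 0.14 (SE, 95% interval 1.03 to 1.69, edgeR adjusted p = 0.000423). Ephb3 was lower in the ileum, with a log2 fold change of -0.50 ± 0.12 (SE, 95% interval -0.78 to -0.21, edgeR adjusted p = 0.0171). These were the 2 members of 9 past the threshold, 1 higher and 1 lower; among all 16178 genes 37.7% passed, 19.5% higher and 18.3% lower. Ccnd1 followed with 0.70 ± 0.26 (SE, edgeR adjusted p = 0.0718), and Myc stood at 0.08 ± 0.12 (SE, 95% interval -0.19 to 0.36). Ephb3 lost its call without WT colon replicate 1, without WT colon replicate 2 and without WT ileum replicate 2, and Axin2 held its call in every fit. All 8 Paneth markers, whose sums are given above, were also higher in the ileum after adjustment in edgeR's test, in WT and in DDX5KO mice, and the part of these cells in the Axin2 and Ephb3 differences was not tested.

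In DDX5KO mice Axin2 differed between the tissues by 1.35 ± 0.14 on the log2 scale (SE, 95% interval 1.02 to 1.68, edgeR adjusted p = 0.000449), close to the WT value. Myc was higher in the ileum by 0.98 ± 0.12 (SE, 95% interval 0.69 to 1.27, edgeR adjusted p = 0.00112), Ccnd1 by 1.36 ± 0.26 (SE, edgeR adjusted p = 0.00691) and Nkd1 by 1.88 ± 0.51 (SE, edgeR adjusted p = 0.0255). With these, 4 of 9 members were higher and 0 lower, against 19.4% of all genes higher and 37.8% changed in either direction. Ephb3 was -0.30 ± 0.12 (SE, edgeR adjusted p = 0.0966). The same 4 members were called without DDX5KO ileum replicate 2, while Nkd1 lost its call without DDX5KO colon replicate 1, without DDX5KO ileum replicate 1 and in DESeq2 with the block. Without DDX5KO ileum replicate 1, Sox9 and Znrf3 were called in its place, with log2 fold changes of 0.53 and 0.52 (edgeR adjusted p = 0.0439 and 0.0441).

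**Figure D4:**
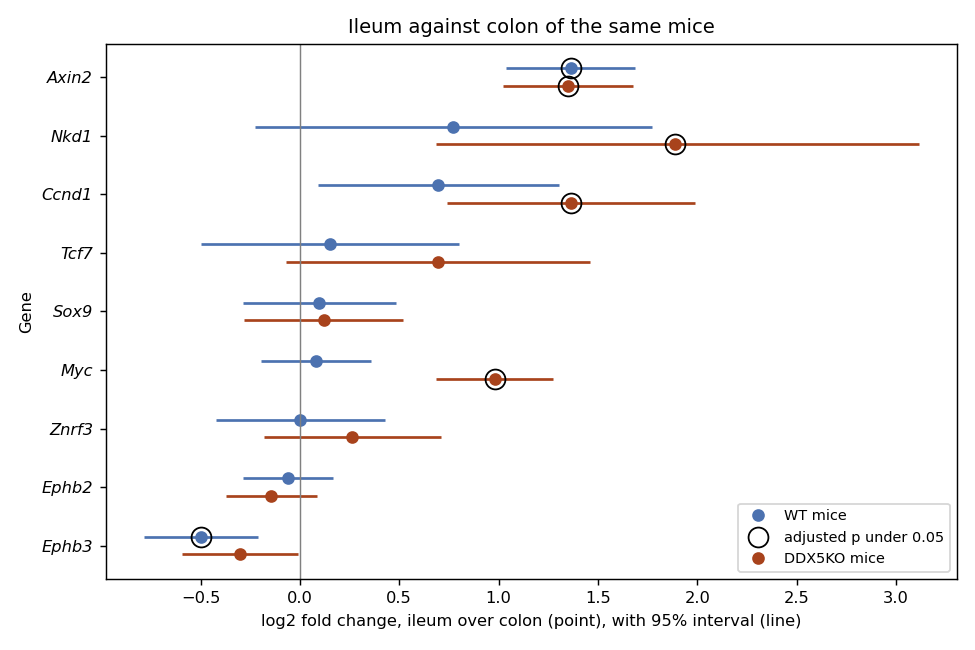
Log2 fold change of ileum over colon of the same mice (horizontal axis, points) with 95% intervals (lines) for the 9 genes tested (vertical axis), in WT and DDX5KO mice; circles mark an adjusted p under 0.05. Axin2 stands at 1.36 in WT and 1.35 in DDX5KO, and Myc at 0.08 and 0.98.

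Whether a gene's genotype difference itself differed between colon and ileum was tested as an interaction over all 8 libraries. Myc had the lowest p of the members, with a difference of 0.90 ± 0.17 between the tissues' log2 fold changes (SE, 95% interval 0.50 to 1.30). It did not pass adjustment (edgeR adjusted p = 0.392), nor did any other member; 0.00618% of all genes did, and 6.37% had an unadjusted p under 0.05, as 1 of the 9 members did. The interaction was 0.66 ± 0.36 for Ccnd1 (SE, edgeR adjusted p = 0.831) and -0.01 ± 0.19 for Axin2 (SE, 95% interval -0.47 to 0.44). Only with no filter on low counts did Myc pass, at an edgeR adjusted p of 0.0284.

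The rest of the pathway was described with 6 lists that leave the 10 members out, 105 genes in all, of which 76 were tested in the colon and 76 in the ileum. None passed adjustment over all genes in either tissue in edgeR's test, where 11 in the colon and 8 in the ileum had an unadjusted p under 0.05, beside 12% and 12.3% of all genes. With the replicate block DESeq2 also passed none, and with no block it passed 1, Ddx17, in each tissue. Leaving out 1 ileum library added no call, but some pathway genes passed where 1 DDX5KO colon library was left out. Those fits had no block and a lone DDX5KO library, and the share of all genes called in them is not given here. At the study's criterion, 1 gene was lower and 0 higher in the colon, and 1 lower and 3 higher in the ileum. These shares are under the 6.64% and 6.61% of all protein-coding genes. The median log2 fold change was -0.04 in the colon and -0.01 in the ileum.

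Wnt ligands and R-spondins, which start the signal, were mostly too low to test: of 16 listed, 1 was tested in colon and 3 in ileum, none past the criterion. Among 17 receptors and co-receptors, none of the 17 tested passed in colon, while 2 of 16 did in ileum, both Frizzled receptors. Fzd3 fell in the ileum from 5.58 and 3.33 CPM in WT to 1.5 and 1.2 CPM in DDX5KO, a log2 fold change of -1.72 ± 0.34 (SE, edgeR adjusted p = 0.0528). In the colon Fzd3 was 9.61 and 9.51 CPM in WT but 0.938 and 9.71 CPM in DDX5KO, so that replicate 1 alone was low. Fzd8 rose in the ileum from 3.14 and 3.33 CPM to 6.37 and 6.53 CPM (log2 fold change 1.00 ± 0.26, SE, edgeR adjusted p = 0.129). Lgr5, the R-spondin receptor that marks crypt stem cells, was 5.72 and 4.93 CPM in WT colon, 5.74 and 9.30 in DDX5KO colon, 20.1 and 13.1 in WT ileum and 13.6 and 17.2 in DDX5KO ileum, and its log2 fold change was 0.46 ± 0.28 (SE) for colon and -0.10 ± 0.22 (SE) for ileum.

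Among beta-catenin and its destruction complex, all 14 genes were tested in both tissues. Ctnnb1, the gene of beta-catenin, was 828 and 792 CPM in WT colon and 818 and 890 CPM in DDX5KO colon, a log2 fold change of 0.06 ± 0.098 (SE, 95% interval -0.19 to 0.32). In the ileum it was 1191 and 1237 CPM in WT and 1359 and 1137 CPM in DDX5KO (0.04 ± 0.21, SE). Apc, whose loss stabilises beta-catenin, was 140 and 145 CPM in WT colon and 139 and 154 CPM in DDX5KO colon (log2 fold change 0.03 ± 0.078, SE), and -0.17 ± 0.14 (SE) on the log2 scale in the ileum. Csnk1e, a casein kinase of the pathway, alone passed the criterion: in the colon it was 14.9 and 12.2 CPM in WT and 8.44 and 9.30 CPM in DDX5KO (-0.62 ± 0.18, SE, edgeR adjusted p = 0.337).

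Of 17 nuclear partners of beta-catenin, 16 were tested in colon and 14 in ileum, and 1 passed the criterion, Ddx17 in the ileum. Ddx17, the close relative of Ddx5, was 269 and 288 CPM in WT colon and 366 and 376 CPM in DDX5KO colon, and 247 and 282 CPM in WT ileum against 431 and 418 CPM in DDX5KO ileum. Its log2 fold change was 0.40 ± 0.085 (SE, edgeR adjusted p = 0.271) in the colon, under the criterion's size, and 0.69 ± 0.16 (SE, edgeR adjusted p = 0.103) in the ileum. All 4 DDX5KO libraries lay above the WT libraries of their tissue. Tcf7l2, the main TCF gene of the gut epithelium, was 54.3 and 54.7 CPM in WT colon and 69.5 and 59.5 in DDX5KO colon, but 59.4 and 47.6 in WT ileum and 46.7 and 44.3 in DDX5KO ileum. Neither log2 fold change passed a test (0.23 ± 0.11, SE, in the colon and -0.22 ± 0.14, SE, in the ileum).

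Of 18 secreted and membrane inhibitors, 6 were tested in the colon with none past the criterion and 7 in the ileum with 1, Tmem64, at 10.8 and 12.1 CPM in WT and 17.3 and 16.4 CPM in DDX5KO (log2 fold change 0.56 ± 0.17, SE, edgeR adjusted p = 0.198). The last list holds 23 further genes reported as Wnt targets, of which 22 were tested in each tissue and none passed the criterion. Its median log2 fold change was -0.22 in the colon, where 14 values were below 0 and 8 above, and 0.11 in the ileum, where 8 were below and 14 above.

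**Figure D5:**
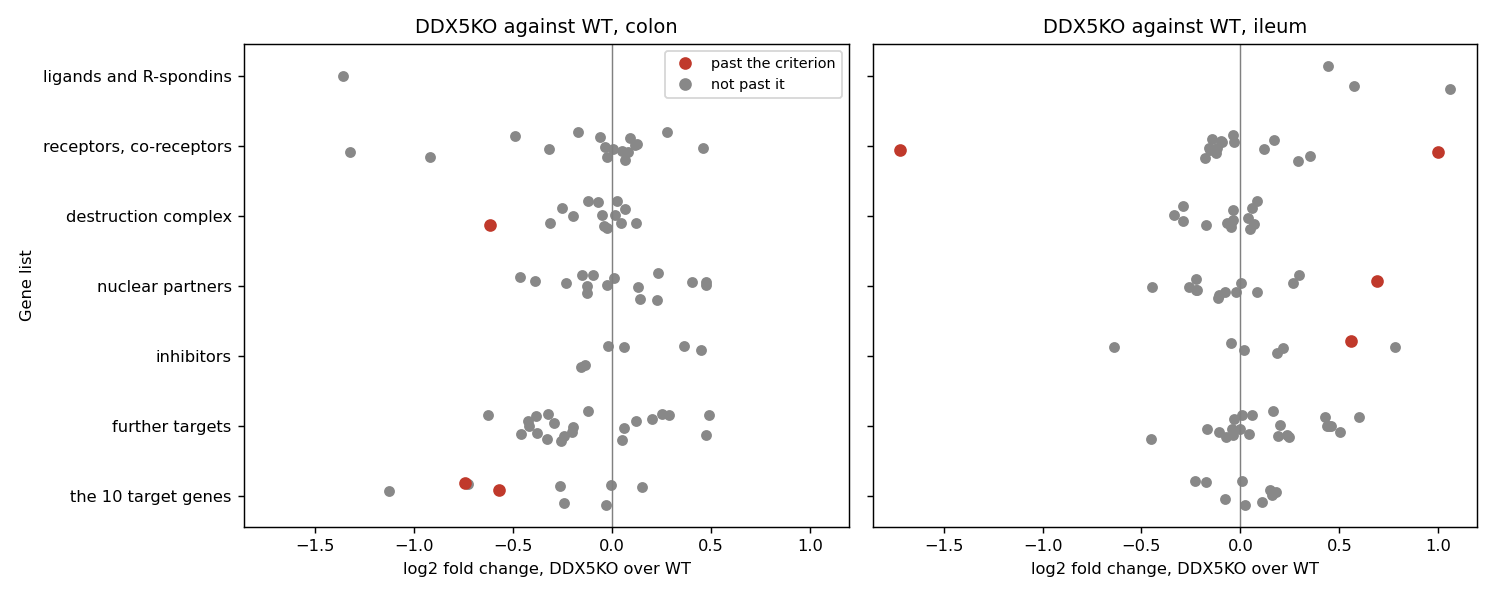
Log2 fold change of DDX5KO over WT (horizontal axes) for the tested genes of 6 Wnt pathway lists and of the 10 target genes (vertical axis) in the colon (left) and the ileum (right); each point is 1 gene, spread vertically for legibility. Red points passed the study's criterion: Myc, Ccnd1 and Csnk1e in the colon, and Fzd3, Fzd8, Ddx17 and Tmem64 in the ileum.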

How the data were processed

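The authors aligned paired-end reads of stranded, ribosome-depleted RNA to mm10 with STAR 2.6.1a, assigned them to genes with featureCounts and deposited raw counts, 1 table per tissue. The strand setting of the counting is not given in the sources used here. The tables also hold the authors' normalized signal, counts divided by a DESeq2 1.18.1 size factor, which served only to tie libraries to mice, and gene lengths. Their own comparison columns (mean, log2 fold change, SE, Wald score, p, adjusted p) were not used.

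Counts were tested with edgeR 4.0.16 in R 4.3.3: filterByExpr with a minimum count of 10, TMM, and the quasi-likelihood test, with Benjamini-Hochberg adjustment over all genes tested and a threshold of 0.05. Within a tissue the terms were replicate number and genotype, since the study's model held a harvest covariate. The tissue comparisons and the interaction used all 8 libraries with the mouse as a block and 1 tissue term per genotype. The mouse numbers of the study's table of DDX genes, whose values equal the deposited normalized values for every gene listed, show that libraries of the same genotype and replicate number share a mouse. A gene in only 1 table was counted as 0 in the other. SE is the log2 coefficient divided by the square root of F, and 95% intervals use the t distribution of the same fit. With 2 mice a group, the smallest two-sided p of an exact permutation test is 0.333, so every p rests on the spread that edgeR shares across genes. Counts per library limit precision for genes such as Lef1 and Nkd1.

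Positions come from GENCODE vM21 (GRCm38); the identifiers with their versions equal those of the tables for all 10 genes. Shared sequence is given as the percent of 50-base words of a gene that other genes' transcripts also hold, as such or as the reverse complement. It thus includes overlap with genes on the other strand. Python 3.11.15 compiled the results. The fits within a tissue were also run on simulated counts. These had the same spread for every gene, no replicate effect and larger changes than the members showed between genotypes. That run therefore does not tell how well differences of the members' size are found. DESeq2 1.42.0, RLE normalization, other filters, no block, all 8 libraries in 1 fit, no repeat-like genes and each library left out were tried as alternatives.

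All 10 members are named, whatever their values; of the pathway lists, those past a test in either tissue and Ctnnb1, Apc, Tcf7l2, Lgr5 and Ddx17; of the markers, Cd3e, Ptprc, Lyz1 and Mki67. The members and lists were chosen with earlier results of these data known.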

Additional observations from a re-analysis of the deposited data

How the results depend on the processing

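Among the values of single genes under all alternatives, 556 kept their direction and side of the threshold, 16 gained and 6 lost significance, and 43 changed sign; the causes were not tested. The count of members past the study's criterion in the colon was 4 with no filter on low counts (Tcf7 and Nkd1 were added), against 2, and ran from 1 to 3 with 1 library left out. Myc met it throughout, while Tcf7 stood in for Ccnd1 without DDX5KO colon replicate 1 and with all 8 libraries in 1 fit. With no replicate block Tcf7 also met it. Members past adjustment in the colon ran from 0 to 4 with 1 library left out, and pathway genes from 0 to 20, with 5 without DDX5KO colon replicate 1 and 20 without DDX5KO colon replicate 2. In the ileum, members past the criterion ran from 0 to 1. Members that differed between the tissues ran from 1 to 3 in WT mice and from 3 to 5 in DDX5KO mice. Pathway genes past adjustment were 1 (Ddx17) in the colon and 1 (Ddx17) in the ileum in DESeq2 with no block, and 2 (Fzd3 and Fzd8) in the ileum with no filter on low counts. The interaction passed for 1 member, Myc, with no filter. Within a tissue, the fits with 1 library left out had no replicate block, and the lone sample of a group was assumed to vary like the others.

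Without the replicate block, Myc in the colon was -0.75 (edgeR adjusted p = 0.220) and Ccnd1 -0.56 (edgeR adjusted p = 0.328), and Nkd1 in the ileum was -0.018. Deviations of same-numbered libraries from their group means correlated at 0.00559 in the colon and 0.240 in the ileum across genes. The sources used here do not give which WT and DDX5KO mice shared a harvest, so whether the numbers pair them is unknown. Over all genes, edgeR's adjusted calls without the block were 5 in the colon, against 0, and 1 in the ileum, against 98. In edgeR's test the block changed no count of members or pathway genes past adjustment within a tissue. Between tissues, where libraries of 1 mouse pair, 3 members passed in WT without it, against 2.

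Small log2 values changed sign as follows. With all 8 libraries in 1 fit, Ephb2 in the colon was 0.0036 and Nkd1 in the ileum -0.021. With no filter, Nkd1 in the ileum was -0.027, Znrf3 -0.016 there and -0.042 between WT tissues, and the Sox9 interaction -0.015. DESeq2 with no block gave -0.0025 for Nkd1 in the ileum. The Axin2 interaction was 0.0097 with RLE, 0.010 in DESeq2 with the block and 0.0074 without the 3 repeat-like genes, where Znrf3 between WT tissues was -0.0089. With 1 library left out, Ephb2 in the colon ran from -0.072 to 0.053. In the ileum, Ccnd1 ran from -0.21 to 0.39, Axin2 from -0.071 to 0.38, Sox9 from -0.66 to 0.20, Ephb2 from -0.16 to 0.013, Nkd1 from -0.33 to 0.45 and Znrf3 from -0.25 to 0.30. Between WT tissues, Myc ran from -0.025 to 0.19, Sox9 from -0.037 to 0.21 and Znrf3 from -0.085 to 0.083, and between DDX5KO tissues Sox9 from -0.30 to 0.53 and Znrf3 from -0.0041 to 0.52. The interaction ran from -0.23 to 0.22 for Axin2, from -0.39 to 0.44 for Sox9 and from -0.14 to 0.00050 for Ephb2.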
